A study of Mus musculus with 12 samples.

Results

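The genes described here are 40 antiviral genes of the type I interferon response, taken from a fixed list of symbols. All 40 were found among the 22195 genes of the series, and all 40 passed the filter on low counts that left 13478 genes for testing. The RNA came from skin tumours formed under the skin of immunocompetent C57BL/6J mice by YUMM 2.1, a mouse melanoma cell line. All groups carried this same line, and treatment began once a tumour measured 20 to 50 mm3. The 4 groups of 3 libraries received an isotype control antibody, an antibody to the checkpoint ligand B7-H3, an antibody to the T cell checkpoint receptor PD1, or both antibodies (combination). The labels give neither the age of the mice nor whether each library came from a mouse of its own, so p-values measure the spread between these libraries, which may be technical.

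Type I interferons are secreted proteins that bind a receptor made of Ifnar1 and Ifnar2. The receptor's kinases Jak1 and Tyk2 activate a complex that holds Stat2 and Irf9 and binds the interferon-stimulated response element, a short DNA motif in front of antiviral genes. The products of these genes sense foreign nucleic acid, block translation of viral RNA, degrade it or hinder entry and release of virus, and in tumours the same genes respond to interferon made by immune or tumour cells.

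The core of that element was searched as GAAA, any 2 bases and again GAAA, on both strands of RefSeq promoters (build GRCm38.p6, 250 bases before to 50 bases after a gene's start). Of the 40 genes, 31 had a promoter entry, and 16 of these (51.6%) held a match, beside 1079 of all 27025 genes with an entry (3.99%). Mx1, Mx2, Oas2, Parp9, Parp14, Rtp4, Usp18, Dhx58 and Zbp1 had no entry. The search also finds overlapping matches, and a match is a description of letters, not a shown binding site. Of the genes with an entry, a match was found in 7 of 11 that were higher in the combination than with anti-B7-H3 alone, in 0 of 3 that were lower (Irf9, Dtx3l and Lgals3bp) and in 9 of 17 that were not called. The promoters of 6 genes are shown as examples, chosen with the results known. The higher genes without a match (Irf7, Ifit2, Ifi44 and Samd9l) are not among them. The 6 therefore do not show how matches go with calls. Isg15, Ifit1 and Ifit3 were higher in the combination than with anti-B7-H3, Ifitm3 had the highest level per length of the 40, and Dtx3l and Lgals3bp were lower in the combination. Capitals mark matches to this core on either strand, and each is written 5′ to 3′ on the gene's strand.
Isg15: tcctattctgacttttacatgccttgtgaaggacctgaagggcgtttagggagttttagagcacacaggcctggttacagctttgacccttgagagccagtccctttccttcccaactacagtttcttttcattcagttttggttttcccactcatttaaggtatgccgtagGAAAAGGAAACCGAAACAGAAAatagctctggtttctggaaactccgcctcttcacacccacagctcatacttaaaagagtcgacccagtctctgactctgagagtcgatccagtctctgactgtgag
Ifit1: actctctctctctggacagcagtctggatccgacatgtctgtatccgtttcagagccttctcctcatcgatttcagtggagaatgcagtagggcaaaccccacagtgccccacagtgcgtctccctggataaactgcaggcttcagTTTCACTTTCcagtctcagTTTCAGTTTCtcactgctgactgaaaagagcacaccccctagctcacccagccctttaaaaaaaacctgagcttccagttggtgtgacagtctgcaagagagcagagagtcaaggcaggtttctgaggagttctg
Ifit3: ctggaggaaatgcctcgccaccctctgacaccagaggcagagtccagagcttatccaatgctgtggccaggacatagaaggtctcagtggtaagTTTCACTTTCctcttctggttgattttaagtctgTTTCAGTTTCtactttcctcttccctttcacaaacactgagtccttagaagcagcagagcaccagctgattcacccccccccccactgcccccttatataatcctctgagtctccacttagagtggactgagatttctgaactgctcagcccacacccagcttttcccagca
Ifitm3: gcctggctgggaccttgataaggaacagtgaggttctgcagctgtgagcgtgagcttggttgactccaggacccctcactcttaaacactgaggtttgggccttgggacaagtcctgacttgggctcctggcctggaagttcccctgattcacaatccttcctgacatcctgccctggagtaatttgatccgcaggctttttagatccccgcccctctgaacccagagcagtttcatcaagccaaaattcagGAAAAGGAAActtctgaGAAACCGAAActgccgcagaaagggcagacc
Dtx3l: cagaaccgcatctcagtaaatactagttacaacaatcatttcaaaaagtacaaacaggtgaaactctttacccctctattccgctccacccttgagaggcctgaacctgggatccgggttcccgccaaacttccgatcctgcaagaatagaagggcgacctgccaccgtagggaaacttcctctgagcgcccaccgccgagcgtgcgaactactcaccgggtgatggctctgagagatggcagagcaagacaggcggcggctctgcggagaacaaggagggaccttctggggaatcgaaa
Lgals3bp: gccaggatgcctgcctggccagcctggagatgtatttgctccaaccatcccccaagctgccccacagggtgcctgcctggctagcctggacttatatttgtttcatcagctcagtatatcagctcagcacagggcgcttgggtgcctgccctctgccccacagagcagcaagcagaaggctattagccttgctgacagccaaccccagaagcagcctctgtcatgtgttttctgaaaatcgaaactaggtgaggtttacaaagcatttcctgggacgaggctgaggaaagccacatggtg

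These stretches lie at chr4:156200769-156201068 (minus strand), chr19:34640639-34640938 (plus strand), chr19:34583279-34583578 (plus strand), chr7:141010695-141010994 (minus strand), chr16:35938978-35939277 (minus strand) and chr11:118401910-118402209 (minus strand), in the order printed. The matches of Isg15 and of both Ifit genes lie upstream of the start, while those of Ifitm3 lie just after it. Several of the 40 genes are neighbours. Ifit2, Ifit3, Ifit3b and Ifit1 lie in a row on chromosome 19, Oas2, Oas3 and Oas1a as well as Oasl2 and Oasl1 on chromosome 5, Rsad2 and Cmpk2 on chromosome 12, and Parp14, Dtx3l and Parp9 on chromosome 16. Dtx3l and Parp9 overlap by 681 bases on opposite strands, and the sources used here do not give the strand setting of the counting, so reads in the overlap cannot be told apart.

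The libraries differ in how much of their reads speak to these genes. Total reads ran from 3593110 to 21298142, but 13 satellite-like predicted genes took 91.0% to 94.2% of reads from isotype control tumours, 69.5% to 75.2% after anti-PD1, 30.4% to 34.2% after the combination and 0.154% to 0.298% after anti-B7-H3. All other genes shared between 1242347 and 1407625 reads of an isotype control library, 2464029 and 2729501 after anti-PD1, 2891879 and 3480698 after the combination, and 3567552 and 3915812 after anti-B7-H3. Reads over 1189 olfactory receptor (Olfr) genes served as a background rate. This assumes that these genes are mostly silent in the tumours, which was not tested. The rate was 6.65 to 7.22 reads per kb for isotype control and 4.99 to 5.47 for anti-PD1. It was 0.609 to 0.692 for the combination and 0.0512 to 0.0614 for anti-B7-H3. This rate is a mean, and in isotype control libraries the middle Olfr gene had 0.689 of it and 1.43% of Olfr genes reached 2 times it. Of 10 macrophage markers, all 10 were higher with anti-B7-H3 than in isotype control, and their summed level was 282.9 to 310.9 counts per 1000000 (CPM) for isotype control, 2369 to 2399 for anti-B7-H3, 406 to 428 for anti-PD1 and 1178 to 1194 for the combination. Of 7 melanocyte markers, which a melanoma would be expected to hold, Dct and Tyrp1 had 0 reads in every anti-B7-H3 library and were under background in isotype control libraries (0.844 and 0.542 times it), Mitf had 10.9 ± 0.610 CPM in isotype control and 12.4 ± 0.721 with anti-B7-H3, and Sox10 66.6 ± 6.14 and 13.9 ± 1.09 (SD, n = 3). The sum of the 7 ran from 25.5 to 28.8 CPM there and from 90.6 to 106.7 in isotype control libraries.

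Summed over the 40 genes, reads were 122.2 times the Olfr-based background or more in every anti-B7-H3 and combination library and 1.61 to 2.02 times it in isotype control libraries. The sum was 832 to 1119 reads per isotype control library where 526.2 ± 23.8 (SD, n = 3) were expected from background, and 6986 to 7783 where 4.29 ± 0.395 were expected with anti-B7-H3. It was 2150 to 2271 where 398.5 ± 19.2 were expected with anti-PD1, and 5702 to 6747 where 49.7 ± 3.21 were expected in the combination. Levels were scaled by library sizes times edgeR's TMM factors, both taken before subtraction. The summed level beyond background was then 582 ± 4.80 CPM with anti-B7-H3 and 555 ± 5.28 with the combination. It was lower with anti-PD1 (228 ± 7.55) and in isotype control (147 ± 25.2), with no overlap between these groups of libraries. Library sizes were not recomputed after subtraction, so the size of these differences depends on that scaling. The tests on subtracted reads below recompute it. For anti-B7-H3 over isotype control they gave the 40 genes a median log2 fold change of 1.44, beside 0.23 over all genes. Singly, 40, 40, 30 and 13 genes had at least 2 times their background in anti-B7-H3, combination, anti-PD1 and isotype control libraries. Of Olfr genes, 3.28%, 3.62%, 2.44% and 1.43% did, and the share over all genes is not given here. These counts differ with background itself. Helz2, the longest of the 40, had 1.49 reads expected over the anti-B7-H3 libraries and 183.5 over those of isotype control. In isotype control 9 genes (Irf7, Oas2, Oas3, Mx1, Mx2, Rsad2, Ifi44, Apol9a and Apol9b) had no more reads than background, and with anti-PD1 it was Mx1 and Ifi44. RNA from whole tumours does not tell fewer cells of a type from less RNA per cell.

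**Figure D1:**
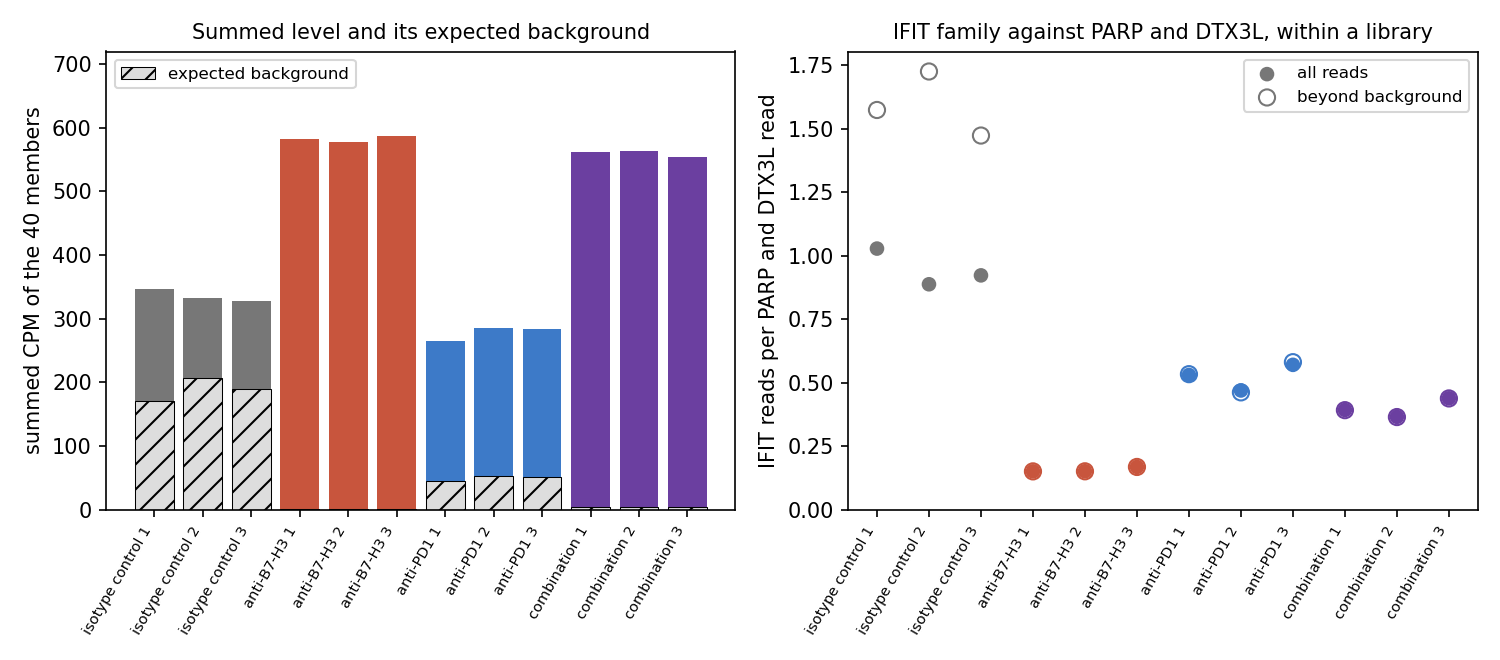
Left, summed CPM of the 40 genes in each of the 12 libraries (coloured bars, from 0) with the part expected from background hatched. The sum beyond background, scaled by TMM library sizes taken before subtraction, is 582 ± 4.80 CPM in anti-B7-H3 and 147 ± 25.2 in isotype control libraries (SD, n = 3). Right, reads of the 4 Ifit genes per read of Parp9, Parp14 and Dtx3l in each library, from all reads (filled) and beyond background (open). The ratio lies between 0.150 and 0.168 in the anti-B7-H3 libraries, the lowest of the 4 groups.

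Per kb of coding length and beyond background, Ifitm3, a membrane protein that stops viruses from fusing in endosomes, stood first in every group. It had 46.7 CPM per kb in isotype control, 122 with anti-B7-H3, 59.9 with anti-PD1 and 110 in the combination. These levels too use the TMM library sizes taken before subtraction. In tests on subtracted reads Ifitm3 changed less over isotype control, by 0.58 with anti-B7-H3 and 0.47 with the combination (log2). With anti-PD1 its value there was -0.19 and not called. Bst2, which tethers budding virus to the cell surface, was second in isotype control, anti-PD1 and combination libraries (13.7, 21.1 and 31.6 CPM per kb). The secreted glycoprotein gene Lgals3bp was second with anti-B7-H3 (42.9 CPM per kb). Ifit3 and Ifit2 followed Bst2 in isotype control (8.56 and 8.36 CPM per kb), whereas Zbp1, Dtx3l and Parp9 followed Lgals3bp and Bst2 with anti-B7-H3 (14.3, 12.7 and 12.5 CPM per kb). Mx2, Oas3 and Oas2 were the lowest both with anti-B7-H3 and in the combination, at 0.53 to 1.09 CPM per kb.

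Every comparison below used edgeR's quasi-likelihood test on all 12 libraries, with p adjusted over the 13478 genes and a threshold of 0.05. Fold changes are log2 fold changes ± SE, and levels are CPM scaled by edgeR's TMM factors. The 3 comparisons with isotype control share its libraries, and the 2 of the combination with a single antibody share the combination's. Since background differs between groups, the same tests on reads with the expected background subtracted are given beside each comparison's counts. That subtraction moves the median of all genes by 0.27, 0.16 and 0.22 in the anti-B7-H3, anti-PD1 and combination comparisons with isotype control.

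With anti-B7-H3 against isotype control, 21 of the 40 genes were higher and 9 lower, beside 30.8% and 33.3% of all genes tested. Their median was 0.34, beside -0.036 over all genes. The largest rises were those of Zbp1, a sensor of Z-form nucleic acid (2.25 ± 0.21), and Lgals3bp (2.02 ± 0.10, adjusted p = 7.3e-29) among the genes described singly, and all 3 of Parp9, Parp14 and Dtx3l rose (median 1.51). Over all 40 genes the largest rise was that of Apol9b (2.69), and Apol9a rose by 2.23. All 4 Ifit genes fell (median -1.04), as did Oas2, Oas3, Oasl1, Mx2 and Cmpk2. With background subtracted, 27 genes were higher and 3 lower (Ifit1, Ifit2 and Ifit3), beside 31.1% and 22% of 12933 genes. The falls of Oas2, Oas3, Mx2, Cmpk2 and Oasl1 then had the opposite sign, and of these Oas3 passed as higher (adjusted p = 0.0221). Macrophage markers moved in the same comparison (median 2.82, all 10 higher), and their part in the result was not tested.

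With anti-PD1 against isotype control, 0 of the 40 genes were higher by edgeR's test and 15 were lower, beside 17.5% and 20.9% of all genes. At an unadjusted p under 0.05 edgeR had 3 higher, and DESeq2's Wald test had 0 higher after adjustment and 2 before it. With background subtracted, Ifih1 and Parp14 were higher and Ddx58, Ifit1, Ifit2, Ifit3 and Lgals3bp lower, beside 12.9% and 9.02% of 12933 genes. The median was -0.48, beside -0.035 over all genes, and 0.13 beside 0.13 with background subtracted. Falls that passed in all 15 alternative settings were those of Ddx58, the RNA sensor RIG-I (-0.68 ± 0.15, adjusted p = 0.000177), Ifit1 (-1.19 ± 0.26) and Ifit3 (-0.70 ± 0.19). Of the 5 Oas genes, 4 were among the 15 that were lower, none of them with background subtracted.

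With the combination against isotype control, 23 genes were higher and 3 lower (Oas2, Oas3 and Mx2), beside 27.8% and 29.5% of all genes, and the median was 0.86 beside -0.011. Zbp1 (1.72 ± 0.23), Isg15 (1.79 ± 0.31), Lgals3bp (1.55 ± 0.11) and Irf7 (1.40 ± 0.27) were among the higher. None of the 4 Ifit genes was called in either direction (-0.31 to 0.20). With background subtracted, 25 genes were higher and 1 lower (Ifit2, -0.72, adjusted p = 0.00743), beside 24.6% and 16.3% of 12933 genes, and the 3 that had been lower turned positive, Oas3 past the threshold (adjusted p = 0.00292). All 10 macrophage markers were higher in this comparison (median 1.78), and their part in the result was not tested.

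The combination against anti-B7-H3 alone compares the 2 groups with the least background. It found 13 genes higher and 6 lower, beside 19.8% and 19.1% of all genes, with a median of 0.15 beside 0.0094. The higher genes were Isg15, Ifit1, Ifit2, Ifit3, Ifit3b, Ifi44, Oas3, Mx2, Rsad2, Irf7, Rtp4, Samd9l and Apol9a, and the largest change was that of Ifi44 (1.60 ± 0.31, adjusted p = 1.25e-05), followed by Ifit3 (1.46 ± 0.13, adjusted p = 5.48e-15). The lower genes were Zbp1, Irf9, Lgals3bp, Parp14, Dtx3l and Parp9, from -0.53 to -0.26. Higher calls in Ifi44, Ifit1, Ifit3 and Ifit3b and lower calls in Zbp1 and Parp14 passed in all 15 alternative settings. With an offset for the effective length that the quantifier gave each gene in each library, 4 were higher and 2 lower, beside 8.9% and 8.89% of all genes, and those are the same 6 genes. With background subtracted, 8 were higher and 6 lower, beside 15% and 14.8%. In this comparison 9 of 10 macrophage markers were lower (median -1.01) and all 6 fibroblast markers were lower (median -0.67), and their part in the result was not tested.

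**Figure D2:**
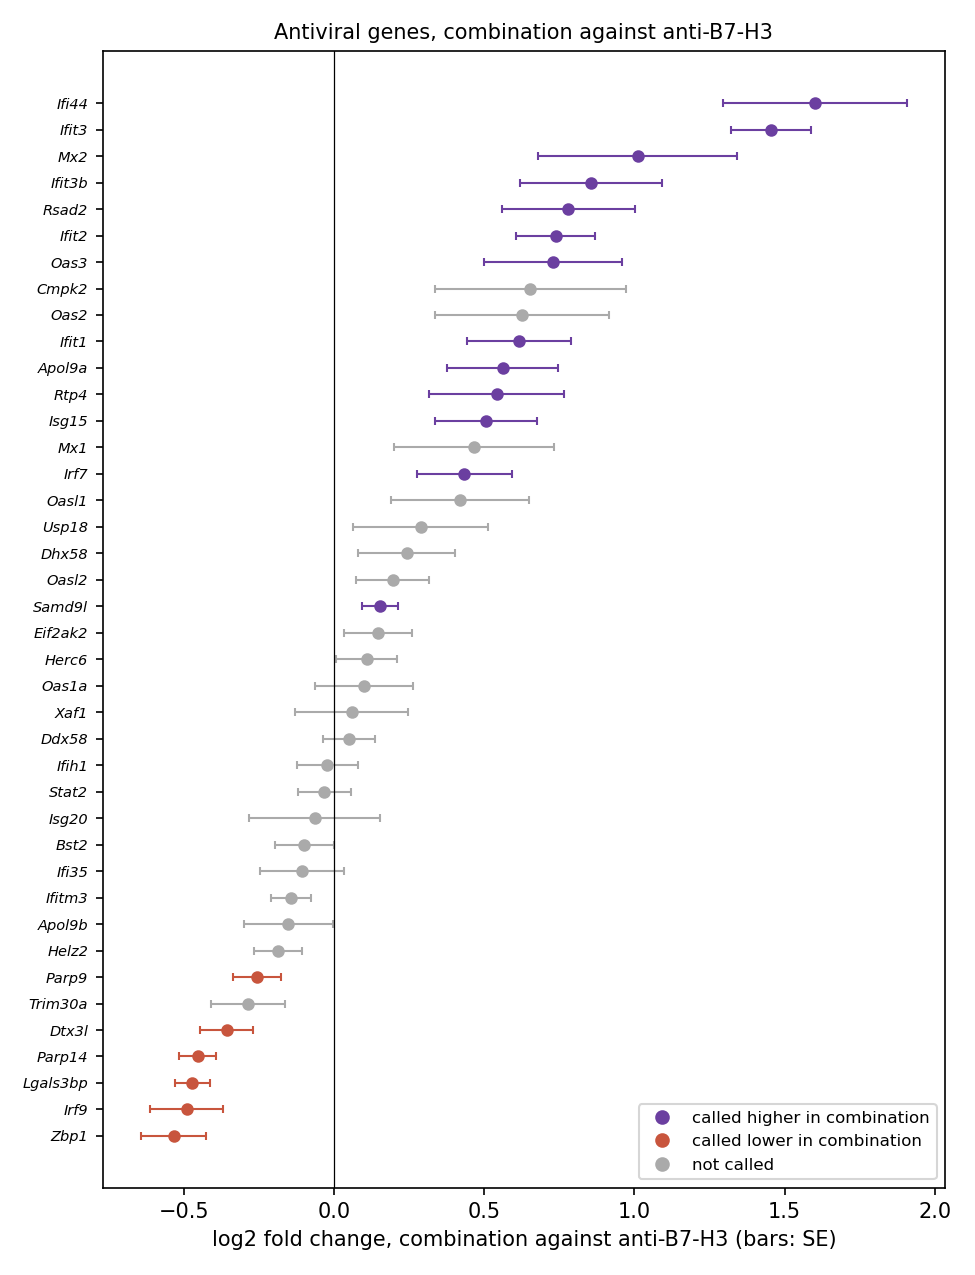
Log2 fold change with SE of the 40 genes in the combination against anti-B7-H3 alone (edgeR, 3 libraries a group), ordered by size. Purple points are the 13 genes called higher, from Ifi44 at 1.60 down to Samd9l at 0.15, red points the 6 called lower and grey points the 21 not called.

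The combination against anti-PD1 alone gave 35 genes higher and 0 lower by edgeR's test, beside 23.1% and 23.4% of all genes, with a median of 0.99 beside -0.0050. At an unadjusted p under 0.05 there were also 0 lower, both by edgeR and by DESeq2's Wald test. No gene of the 40 had a negative fold change in this comparison, and the 5 that were not called higher were Usp18, Oas2, Oas3, Mx2 and Isg20. The largest changes among genes described singly were those of Oas1a (2.78 ± 0.26, adjusted p = 1.74e-14), Ifi44 (2.61 ± 0.39) and Isg15 (1.93 ± 0.23). Over all 40 genes the largest was that of Apol9a (3.21), with Apol9b at 2.64. With background subtracted 34 were higher and 0 lower, beside 19.3% and 17.2% of 12933 genes, and 26 calls passed in all 15 alternative settings. All 10 macrophage markers were higher here as well (median 1.41), and their part in the result was not tested.

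**Figure D3:**
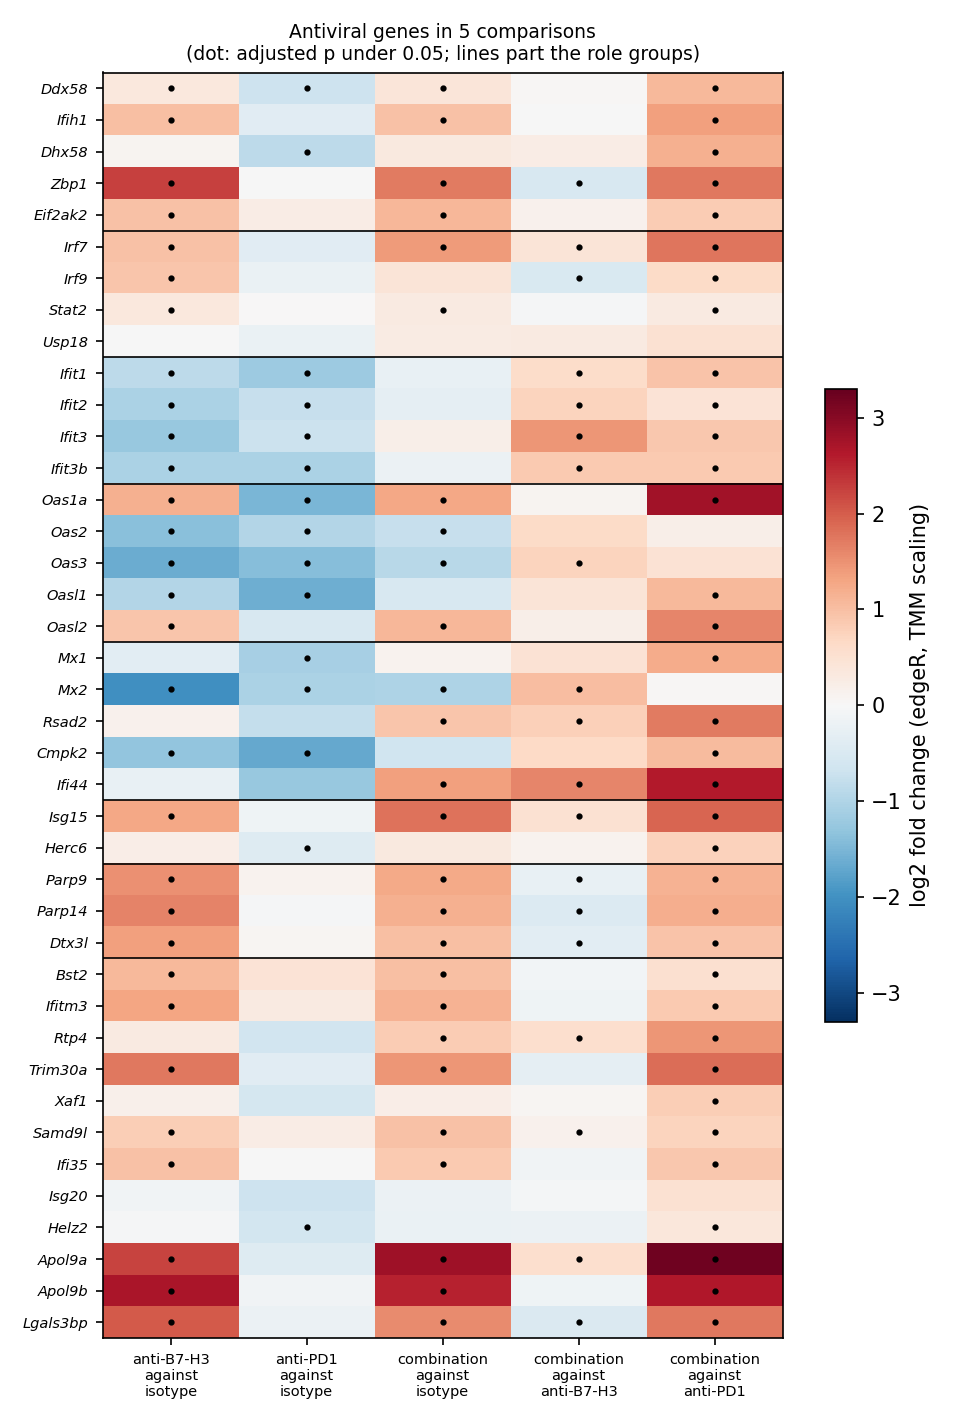
Log2 fold changes of the 40 genes (rows, in role groups parted by lines) in the 5 comparisons (columns), with a dot where the adjusted p is under 0.05. The 4 Ifit genes are lower in both columns of a single antibody against isotype control and higher in both columns of the combination against a single antibody. The first 3 columns are without background subtraction. It turns the sign of many genes there, among them Oas2, Mx2 and Helz2 in all 3. Others are Oas3, Cmpk2 and Oasl1 for anti-B7-H3 and the combination, Mx1 for anti-B7-H3 and anti-PD1, and Ifih1 and Parp14 for anti-PD1.

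The 5 sensors of nucleic acid rose with anti-B7-H3 against isotype control in 4 cases, and Zbp1 alone fell from anti-B7-H3 to the combination. Zbp1, whose product can start necroptosis, stood at 3.40, 3.64 and 4.09 CPM with isotype control, 16.4, 19.3 and 17.2 with anti-B7-H3, 4.03, 3.77 and 3.03 with anti-PD1 and 13.2, 10.5 and 12.6 with the combination. All anti-B7-H3 libraries lay above all combination libraries, and these above the rest. The change from anti-B7-H3 to the combination was -0.53 ± 0.11 (adjusted p = 3.76e-05) and that from anti-PD1 1.74 ± 0.16. Ddx58 had 17.0, 20.8 and 20.1 CPM with isotype control, 24.7, 25 and 23.3 with anti-B7-H3, 12.3, 11.7 and 11.9 with anti-PD1 and 25.1, 28.5 and 22.3 with the combination. Its anti-PD1 libraries were the lowest and did not overlap any other group, and the combination was 1.07 ± 0.11 above them, while it differed from anti-B7-H3 by 0.051 ± 0.086 (adjusted p = 0.681). The rises of Ddx58 over isotype control did not pass with background subtracted, nor without isotype control library 1 (adjusted p = 0.143) for anti-B7-H3 and without isotype control library 1 (adjusted p = 0.0839) for the combination.

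Ifih1, the sensor MDA5 of long double-stranded RNA, had 6.80, 8.80 and 8.17 CPM with isotype control, 14.3, 16.9 and 16 with anti-B7-H3, 6.52, 5.28 and 6.19 with anti-PD1 and 15.9, 15.2 and 15.2 with the combination. Its isotype control reads equalled 1.04 times background, so the 0.999 ± 0.17 rise with anti-B7-H3 was larger with background subtracted (4.63), and the anti-PD1 value turned from -0.38 to 2.92. Eif2ak2, the kinase PKR that halts translation on double-stranded RNA, had 6.18, 6.00 and 6.02 CPM with isotype control, 13.1, 11.6 and 10.6 with anti-B7-H3, 6.40, 8.04 and 7.25 with anti-PD1 and 13.5, 13.0 and 12.6 with the combination. It rose with anti-B7-H3 (0.96 ± 0.20) and with the combination (1.10 ± 0.20), and the combination was above anti-PD1 by 0.85 ± 0.14. Dhx58, the regulator LGP2 of the RIG-I-like sensors, had 7.11, 4.4 and 4.46 CPM with isotype control, 5.54, 5.83 and 5.98 with anti-B7-H3, 2.96, 3.89 and 2.11 with anti-PD1 and 6.57, 6.91 and 6.97 with the combination. Its combination libraries were above the anti-PD1 libraries without overlap (1.18 ± 0.20). The fall with anti-PD1 against isotype control (-0.86 ± 0.28) did not pass without isotype control library 1 (adjusted p = 0.222) or without anti-PD1 library 3 (adjusted p = 0.0679), and had the opposite sign with background subtracted (0.31).

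Among transcription factors and feedback genes, Irf7 and Irf9 moved in opposite directions when PD1 blockade was added to B7-H3 blockade. Irf7, which amplifies interferon alpha transcription, had 2.47, 4.0 and 3.71 CPM with isotype control, 7.64, 5.37 and 6.38 with anti-B7-H3, 1.78, 3.64 and 2.37 with anti-PD1 and 7.50, 9.09 and 9.68 with the combination. The combination and anti-B7-H3 libraries overlapped, and the difference of 0.43 ± 0.16 (adjusted p = 0.0214) did not pass without anti-B7-H3 library 2 (adjusted p = 0.137), without anti-B7-H3 library 3 (adjusted p = 0.0597), without combination library 2 (adjusted p = 0.0639) or without combination library 3 (adjusted p = 0.138), nor with background subtracted or the effective-length offset (adjusted p = 0.095 and 0.169). Against anti-PD1 the combination was 1.76 ± 0.21 higher with no overlap. Irf9, the DNA-binding member of the complex that holds Stat2, had 6.80, 7.20 and 7.43 CPM with isotype control, 12.7, 12.6 and 14.7 with anti-B7-H3, 6.16, 5.02 and 7.25 with anti-PD1 and 10.2, 8.0 and 10.2 with the combination. It was lower in the combination than with anti-B7-H3 without overlap (-0.49 ± 0.12, adjusted p = 0.00075), though not with the effective-length offset (adjusted p = 0.175).

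Stat2 had 17.0, 16.8 and 16 CPM with isotype control, 21.4, 19.6 and 22.1 with anti-B7-H3, 17.2, 17.2 and 15.9 with anti-PD1 and 21.5, 19.5 and 20.8 with the combination. All of these lie within a narrow range, and its rises of 0.34 ± 0.13 with anti-B7-H3 and 0.31 ± 0.13 with the combination over isotype control did not pass with background subtracted. The first did not pass without isotype control library 3 (adjusted p = 0.0672) and the second not without isotype control library 1 (adjusted p = 0.0773), without isotype control library 2 (adjusted p = 0.0759), without isotype control library 3 (adjusted p = 0.115), without combination library 1 (adjusted p = 0.0919) or without combination library 3 (adjusted p = 0.0684), while the difference of the combination from anti-PD1 (0.29 ± 0.10) did not pass without anti-PD1 library 3 (adjusted p = 0.0537) or with background subtracted (adjusted p = 0.0986). Usp18, which removes Isg15 from proteins and damps the receptor, had 3.40, 2.80 and 2.69 CPM with isotype control, 2.92, 2.81 and 3.11 with anti-B7-H3, 2.25, 3.64 and 1.71 with anti-PD1 and 3.33, 4.25 and 3.28 with the combination. It was called in none of the 5 comparisons by edgeR's test, and its largest difference was 0.50 ± 0.25 between the combination and anti-PD1 (adjusted p = 0.099). With background subtracted it was higher with anti-B7-H3 and the combination than in isotype control (adjusted p = 0.0208 and 0.0109).

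The Ifit genes, whose products bind the ends of foreign RNA and hold it from ribosomes, were all lower with each single antibody than in isotype control and all higher in the combination than with each single antibody. Ifit2 is the exception with the effective-length offset, where its values turned to 0.38 and 0.34 against isotype control and -0.040 against anti-B7-H3, none of them called. Ifit3, which stabilises Ifit1, had 13.5, 12.2 and 14.4 CPM with isotype control, 6.10, 5.41 and 5.31 with anti-B7-H3, 5.66, 9.13 and 10.05 with anti-PD1 and 14.7, 15.3 and 16 with the combination. These values rest on 44, 30 and 39 reads with isotype control, 81, 65 and 67 with anti-B7-H3, 48, 73 and 76 with anti-PD1 and 159, 155 and 196 with the combination. Combination libraries lay above all anti-B7-H3 and anti-PD1 libraries, and above isotype control by an amount that was not called (0.20 ± 0.17, adjusted p = 0.308). Against anti-PD1 the rise was 0.90 ± 0.14 and against anti-B7-H3 it was the 1.46 ± 0.13 given above.

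Ifit1, which binds the cap of RNA that lacks methylation, had 8.35, 5.6 and 8.17 CPM with isotype control, 3.53, 4.30 and 4.49 with anti-B7-H3, 3.3, 2.89 and 3.55 with anti-PD1 and 6.19, 5.82 and 6.72 with the combination. Again the combination libraries were above both single-antibody groups without overlap, by 0.62 ± 0.17 (adjusted p = 0.00281) and 0.94 ± 0.20. The anti-B7-H3 libraries were below isotype control by -0.87 ± 0.23. Ifit2, which binds AU-rich RNA, had 19.8, 12 and 14.1 CPM with isotype control, 7.09, 6.94 and 8.58 with anti-B7-H3, 9.48, 8.79 and 9.35 with anti-PD1 and 12.9, 10.3 and 14.4 with the combination. It was 0.74 ± 0.13 higher in the combination than with anti-B7-H3 without overlap, and its difference from anti-PD1 (0.45 ± 0.14) did not pass without combination library 3 (adjusted p = 0.0876), with background subtracted or with the effective-length offset (adjusted p = 0.0887 and 0.997), nor its fall with anti-PD1 against isotype control (-0.76 ± 0.18) without isotype control library 1 (adjusted p = 0.0606). Ifit3b, a near-identical copy of Ifit3 with which it may share reads, had 3.83, 5.40 and 3.81 CPM with isotype control, 2.21, 1.87 and 2.10 with anti-B7-H3, 2.39, 1.68 and 2.20 with anti-PD1 and 3.87, 3.53 and 3.86 with the combination. It followed Ifit3 in direction in all 4 comparisons in which it was called, with 0.86 ± 0.23 against anti-B7-H3 and 0.85 ± 0.26 against anti-PD1. Its falls with anti-B7-H3 (-1.04) and anti-PD1 (-1.03) did not pass with background subtracted, and the second not without isotype control library 2 (adjusted p = 0.0915).

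The 3 genes Parp14, Dtx3l and Parp9, of which Dtx3l and Parp9 form a ubiquitin ligase with ADP-ribosylation activity and Parp14 is a large mono-ADP-ribosyltransferase, moved together in the other direction. All 3 rose with anti-B7-H3 over isotype control (Parp9 not with the effective-length offset, adjusted p = 0.122), all 3 were lower in the combination than with anti-B7-H3, and none was called with anti-PD1 over isotype control (-0.033 to 0.12), although Parp14 was higher there with background subtracted (0.64, adjusted p = 0.02). Parp14 had 21.9, 18.5 and 21.2 CPM with isotype control, 66.7, 62.0 and 62.8 with anti-B7-H3, 19.6, 22.3 and 18.7 with anti-PD1 and 46.2, 46.4 and 47.4 with the combination. Dtx3l had 11.4, 9.20 and 12.7 CPM with isotype control, 30.2, 28.3 and 26.9 with anti-B7-H3, 9.48, 12.6 and 13.0 with anti-PD1 and 23.1, 23.8 and 20.1 with the combination. Parp9 had 10.8, 12 and 10.03 CPM with isotype control, 29.0, 32.5 and 32.2 with anti-B7-H3, 10.3, 13.1 and 12.4 with anti-PD1 and 26.7, 25.4 and 26.3 with the combination. In each of the 3, anti-B7-H3 libraries were the highest, combination libraries next and the other groups lowest, with no overlap between these steps. From anti-B7-H3 to the combination the changes were -0.45 ± 0.061 (adjusted p = 3.12e-09), -0.36 ± 0.088 and -0.26 ± 0.081. That of Parp9 did not pass without anti-B7-H3 library 3 (adjusted p = 0.0526), and with the effective-length offset neither Parp9 nor Dtx3l passed (adjusted p = 0.215 and 0.0935).

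A ratio within a library does not depend on how libraries are scaled. Reads of the 4 Ifit genes per read of Parp9, Parp14 and Dtx3l were 0.887 to 1.03 for isotype control, 0.150 to 0.168 for anti-B7-H3, 0.469 to 0.570 for anti-PD1 and 0.365 to 0.438 for the combination. Beyond background the isotype control ratio was 1.47 to 1.73, and the others were 0.150 to 0.168, 0.462 to 0.581 and 0.364 to 0.438. The 4 groups did not overlap in either form. The genes were grouped by role with their values known, so this ratio is a description with no test.

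The oligoadenylate synthetases, which make short oligoadenylate messengers on double-stranded RNA, split into 2 sorts before background was subtracted. Oas1a had 2.94, 3.10 and 2.23 CPM with isotype control, 5.91, 8.29 and 5.36 with anti-B7-H3, 1.13, 0.714 and 0.996 with anti-PD1 and 6.05, 7.86 and 6.93 with the combination. It was high in anti-B7-H3 and combination libraries, which overlapped (0.10 ± 0.16, adjusted p = 0.676), and low elsewhere, so that the combination exceeded anti-PD1 by 2.78 ± 0.26. Oasl2, which keeps synthetase activity in mice, had 6.18, 4.80 and 7.06 CPM with isotype control, 12.5, 9.92 and 11.5 with anti-B7-H3, 3.79, 5.53 and 3.29 with anti-PD1 and 14.3, 11.6 and 13.0 with the combination. It shared that order, with 0.90 ± 0.21 for anti-B7-H3 over isotype control and 1.62 ± 0.16 for the combination over anti-PD1.

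Oas3, by contrast, had 8.35, 7.20 and 4.83 CPM with isotype control, 2.27, 1.98 and 2.31 with anti-B7-H3, 2.25, 2.64 and 2.90 with anti-PD1 and 3.89, 3.75 and 3.28 with the combination. Its reads in isotype control were 0.824 times background and with anti-PD1 1.16 times, so the falls of -1.65 ± 0.27 with anti-B7-H3 and -1.40 ± 0.28 with anti-PD1 are measured from reads near or under background, and the first turned to 2.37 with background subtracted. Oas1a (3.93) and Oas2 (1.42, not called) were positive there too. Over anti-PD1 the combination was then higher in Oas3 (3.10, adjusted p = 9.47e-06). Before subtraction that value was 0.49, and with the effective-length offset -1.29, neither called. The combination was 0.73 ± 0.23 above anti-B7-H3 without overlap, a call that did not pass with background subtracted or the effective-length offset (adjusted p = 0.114 and 0.893). Oas2 had 5.87, 3.20 and 3.71 CPM with isotype control, 1.5, 2.07 and 1.43 with anti-B7-H3, 2.85, 2.76 and 1.05 with anti-PD1 and 3.24, 2.37 and 2.13 with the combination. Its isotype control reads too were under background (0.796 times), and the combination's difference from anti-B7-H3, 0.63 ± 0.29, was not called (adjusted p = 0.079). The falls of Oas2 did not pass without isotype control library 1 (adjusted p = 0.283) or without anti-PD1 library 3 (adjusted p = 0.159) for anti-PD1 and without isotype control library 1 (adjusted p = 0.405), without isotype control library 3 (adjusted p = 0.051), without combination library 2 (adjusted p = 0.0995) or without combination library 3 (adjusted p = 0.137) for the combination. Oasl1, a family member that lacks synthetase activity, had 5.26, 6.80 and 3.71 CPM with isotype control, 2.92, 2.23 and 2.87 with anti-B7-H3, 1.42, 1.76 and 1.98 with anti-PD1 and 4.26, 3.06 and 3.45 with the combination. It was lower with both single antibodies than in isotype control (-0.96 ± 0.29 and -1.60 ± 0.33), neither with background subtracted (adjusted p = 0.998 and 0.0875), and 1.06 ± 0.27 higher in the combination than with anti-PD1. Reads of these related genes may be shared in ways the sources used here do not describe.

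Ifi44, an interferon-induced cytoplasmic protein of low level, had 4, 5 and 2 reads with isotype control, 11, 16 and 15 with anti-B7-H3, 5, 4 and 4 with anti-PD1 and 31, 41 and 40 with the combination. Scaled, these are 1.24, 2.0 and 0.743 CPM with isotype control, 0.824, 1.32 and 1.20 with anti-B7-H3, 0.592, 0.502 and 0.527 with anti-PD1 and 2.87, 4.05 and 3.28 with the combination. The combination libraries were above all others, and with 0.421 times background in isotype control and 0.657 times with anti-PD1, Ifi44 was not detectable beyond background in those groups. Rsad2, the radical-SAM enzyme viperin that makes a chain-terminating nucleotide, had 1.85, 3.60 and 1.86 CPM with isotype control, 2.55, 2.15 and 3.19 with anti-B7-H3, 1.19, 1.76 and 1.19 with anti-PD1 and 4.26, 4.64 and 4.68 with the combination. It was 0.78 ± 0.22 higher in the combination than with anti-B7-H3 (adjusted p = 0.00316) and 1.71 ± 0.28 higher than with anti-PD1, in both without overlap, but the first did not pass with the effective-length offset (adjusted p = 0.124). Its rise over isotype control with the combination (0.92 ± 0.33) did not pass without isotype control library 1 (adjusted p = 0.0987) or without isotype control library 3 (adjusted p = 0.0755). Cmpk2, the nucleotide kinase encoded beside Rsad2, had 4.33, 4.80 and 1.86 CPM with isotype control, 1.5, 1.69 and 1.28 with anti-B7-H3, 1.36, 0.377 and 1.71 with anti-PD1 and 2.42, 2.37 and 2.21 with the combination. The combination libraries were above those of anti-B7-H3 without overlap, yet the difference of 0.65 ± 0.32 was not called (adjusted p = 0.0966), and that from anti-PD1 (1.04 ± 0.36) did not pass without anti-PD1 library 2 (adjusted p = 0.177). Its falls with anti-B7-H3 and anti-PD1 (-1.31 ± 0.39 and -1.69 ± 0.43) did not pass with background subtracted.

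Mx1, a gene of the Mx GTPase family, had 3.23, 2.40 and 2.23 CPM with isotype control and 1.70, 1.70 and 2.71 with anti-B7-H3. It had 1.30, 1.38 and 0.942 CPM with anti-PD1 and 3.23, 2.76 and 2.54 with the combination. Its reads were at or under background in isotype control and anti-PD1 libraries (0.579 and 0.992 times), and the combination exceeded anti-PD1 by 1.23 ± 0.32. The fall with anti-PD1 (-1.10 ± 0.43) did not pass without isotype control library 1 (adjusted p = 0.163), without isotype control library 2 (adjusted p = 0.0578) or without anti-PD1 library 3 (adjusted p = 0.0959), nor with background subtracted. Mx2, annotated as a polymorphic pseudogene, had 5.43, 4.4 and 2.60 CPM with isotype control, 0.924, 1.03 and 1.20 with anti-B7-H3, 1.78, 1.76 and 2.62 with anti-PD1 and 1.48, 2.57 and 2.21 with the combination. It was highest in isotype control, where its reads were 0.877 times background, and the combination was 1.01 ± 0.33 above anti-B7-H3, a call that did not pass without combination library 2 (adjusted p = 0.0684). Its falls against isotype control did not pass without isotype control library 1 (adjusted p = 0.186), without anti-PD1 library 1 (adjusted p = 0.0547) or without anti-PD1 library 2 (adjusted p = 0.0516) for anti-PD1 and without isotype control library 1 (adjusted p = 0.15) for the combination. With background subtracted none of the Mx2 calls remained, and the fall with anti-B7-H3 (-2.03 ± 0.38) turned to 0.74.

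Isg15, the ubiquitin-like protein that is joined to newly made viral and host proteins, had 1.55, 2.0 and 2.60 CPM with isotype control, 5.17, 5.46 and 4.22 with anti-B7-H3, 1.30, 2.14 and 2.11 with anti-PD1 and 6.20, 7.50 and 7.42 with the combination. These values rest on 5, 5 and 7 reads with isotype control, 69, 66 and 53 with anti-B7-H3, 11, 17 and 16 with anti-PD1 and 67, 76 and 90 with the combination. Combination libraries were the highest, anti-B7-H3 libraries next, and the other groups overlapped at the bottom. The combination exceeded anti-PD1 by 1.93 ± 0.23 and anti-B7-H3 by 0.51 ± 0.17 (adjusted p = 0.0124), and the second did not pass without anti-B7-H3 library 3 (adjusted p = 0.0849), without combination library 2 (adjusted p = 0.0523) or without combination library 3 (adjusted p = 0.0627), nor with the effective-length offset (adjusted p = 0.102). Herc6, the main ligase of Isg15 in mice, had 11.7, 12.8 and 12.6 CPM with isotype control, 14.3, 13.9 and 14.8 with anti-B7-H3, 8.89, 10.2 and 8.30 with anti-PD1 and 15.5, 16 and 15 with the combination. It was 0.76 ± 0.12 higher in the combination than with anti-PD1, which turned to -0.27 with the effective-length offset, and it was not called between the combination and anti-B7-H3 (0.11 ± 0.10). Its fall with anti-PD1 (-0.44 ± 0.17) did not pass without isotype control library 1 (adjusted p = 0.061), without isotype control library 2 (adjusted p = 0.104), without isotype control library 3 (adjusted p = 0.0983), without anti-PD1 library 1 (adjusted p = 0.0764) or without anti-PD1 library 3 (adjusted p = 0.108), nor with background subtracted.

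Among the 12 membrane and other effectors, 8 rose with anti-B7-H3, 9 with the combination over isotype control and 11 in the combination over anti-PD1, beside 30.8%, 27.8% and 23.1% of all genes, and none fell in these 3 comparisons. Lgals3bp, which binds galectins, had 18.2, 17.6 and 18.9 CPM with isotype control, 71.8, 73.7 and 77.8 with anti-B7-H3, 14.5, 16.3 and 17.3 with anti-PD1 and 53.9, 55.1 and 52.2 with the combination. Anti-B7-H3 libraries lay above combination libraries and both far above the others, with -0.47 ± 0.057 (adjusted p = 1.63e-10) for the combination against anti-B7-H3 and 1.75 ± 0.079 against anti-PD1. With the effective-length offset the first did not pass (adjusted p = 0.376). Ifitm3 had 23.8, 22 and 15.2 CPM with isotype control, 50.3, 50.0 and 50.8 with anti-B7-H3, 25, 25 and 25.2 with anti-PD1 and 49.2, 43.9 and 43.9 with the combination. Its combination libraries were below those of anti-B7-H3 without overlap, by an amount that was not called (-0.14 ± 0.066, adjusted p = 0.0796), and above anti-PD1 by 0.87 ± 0.079. Bst2 had 7.11, 8.0 and 10.03 CPM with isotype control, 19.2, 15.9 and 17.5 with anti-B7-H3, 10.9, 11.9 and 11.1 with anti-PD1 and 14.9, 18.0 and 16.3 with the combination. It overlapped between anti-B7-H3 and the combination (-0.10 ± 0.10) and rose with anti-B7-H3 over isotype control by 1.08 ± 0.17, or by 0.51 with background subtracted.

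Samd9l, which represses translation, had 30.9, 27.6 and 29.0 CPM with isotype control, 50.6, 55.0 and 48.5 with anti-B7-H3, 32.6, 34.7 and 36.4 with anti-PD1 and 56.1, 60.2 and 55.2 with the combination. It was 0.15 ± 0.060 higher in the combination than with anti-B7-H3 without overlap, the smallest change called (adjusted p = 0.0372), and this did not pass without anti-B7-H3 library 1 (adjusted p = 0.0954), without anti-B7-H3 library 3 (adjusted p = 0.18), without combination library 1 (adjusted p = 0.0602) or without combination library 2 (adjusted p = 0.175). Nor did it pass with DESeq2's size factors, DESeq2's Wald test, no filter or the effective-length offset (adjusted p = 0.0625, 0.0822, 0.0892 and 0.729). Helz2, a helicase that coactivates transcription, had 28.6, 27.6 and 30.1 CPM with isotype control, 29.1, 26.1 and 29.0 with anti-B7-H3, 18.3, 18.7 and 19.8 with anti-PD1 and 24.0, 25.2 and 24.9 with the combination. It was lower with anti-PD1 than in isotype control (-0.60 ± 0.12), but not with background subtracted (0.36), and its isotype control reads were 1.32 times background. The other 7 of these 12 genes (Rtp4, Trim30a, Xaf1, Ifi35, Isg20, Apol9a and Apol9b) ran from -0.12 to 2.69 with anti-B7-H3 over isotype control, and 4 of them were called higher there. In the combination against anti-B7-H3 they ran from -0.28 to 0.56. Rtp4 and Apol9a were called there. Rtp4 did not pass without anti-B7-H3 library 1 (adjusted p = 0.193), without anti-B7-H3 library 2 (adjusted p = 0.13), without combination library 1 (adjusted p = 0.197) or without combination library 3 (adjusted p = 0.11), and Apol9a, which may share reads with its near-identical copy Apol9b (-0.15), did not pass without anti-B7-H3 library 2 (adjusted p = 0.0541) or without combination library 2 (adjusted p = 0.157). Neither passed with background subtracted (adjusted p = 0.149 and 0.0657), the effective-length offset (0.315 and 0.493) or DESeq2's Wald test (0.118 and 0.0637), and Rtp4 also not with DESeq2's size factors, no filter or the replicate block. Rtp4 over isotype control in the combination (0.84) did not pass without isotype control library 1 (adjusted p = 0.495), without combination library 1 (adjusted p = 0.0892) or without combination library 3 (adjusted p = 0.0552).

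**Figure D4:**
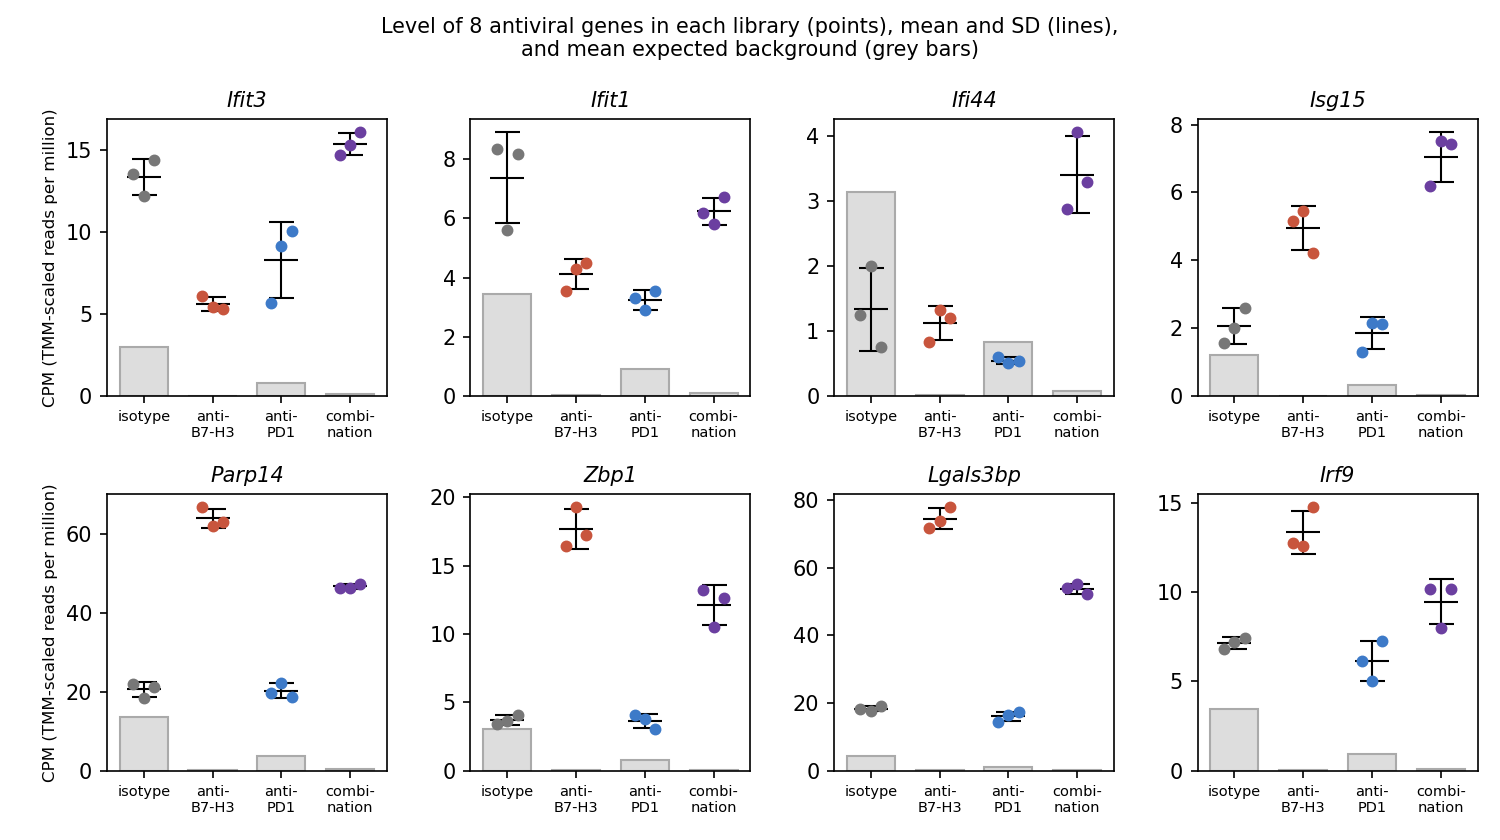
CPM of 8 of the genes in each library (points), the mean with SD of the 3 libraries of a group (lines) and the mean level expected from background (grey bars), each panel from 0. In the upper row Ifit3, Ifit1, Ifi44 and Isg15 are higher in the combination than with anti-B7-H3. In the lower row Parp14, Zbp1, Lgals3bp and Irf9 are highest with anti-B7-H3, and Ifi44 in isotype control lies below its background bar.

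The genes upstream of the 40 were read from lists of the same pathway. All 19 interferon ligand genes listed (the alpha family, Ifnb1, Ifne, Ifnk, Ifnab, Ifnl2 and Ifnl3 among them) were found and none passed the filter, with 9 to 20 reads in all per isotype control library, 0 to 1 with anti-B7-H3, 9 to 19 with anti-PD1 and 0 to 3 in the combination. The Olfr rate would give 74.7, 0.608, 56.6 and 7.06 reads in these groups. Interferon transcripts were thus not detectable beyond that rate at this depth. In isotype control, anti-PD1 and combination libraries these genes had fewer reads than the rate gives. The Olfr mean was thus too high a background for them there, and whether it is for the 40 genes was not tested. The receptor chains Ifnar1 and Ifnar2 and the kinases Jak1 and Tyk2 were each higher with anti-B7-H3 than in isotype control (0.90 ± 0.13, 0.90 ± 0.15, 1.22 ± 0.068 and 1.31 ± 0.15). Each was lower in the combination than with anti-B7-H3 (-0.41 ± 0.087, -0.60 ± 0.10, -0.20 ± 0.046 and -0.46 ± 0.092) and higher in the combination than with anti-PD1 (0.33 ± 0.10, 0.49 ± 0.12, 0.87 ± 0.054 and 0.41 ± 0.11).

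Of 16 genes of upstream sensing, 10 were higher and 2 lower with anti-B7-H3 than in isotype control, beside 30.8% and 33.3% of all genes, and 1 was higher and 9 lower in the combination than with anti-B7-H3, beside 19.8% and 19.1%. Irf5, a factor of myeloid cells that drives interferon genes, changed by 1.91 ± 0.15 and -0.99 ± 0.091 in these comparisons, and Ifi204, a DNA sensor, was the 1 that rose in the second (0.24 ± 0.087). The negative regulators Socs1, Socs3 and Ptpn6 were lower in the combination than with anti-B7-H3 (-1.28 ± 0.21, -0.37 ± 0.11 and -0.85 ± 0.087), and Ptpn11 was not called (-0.065 ± 0.091). Of the genes that edit or degrade nucleic acid, Samhd1 (-0.96 ± 0.058) and Trex1 (-0.68 ± 0.15) were lower there and Adar was not called (-0.17 ± 0.087). Markers of plasmacytoid dendritic cells, which can make much interferon, summed to 8.46 to 11.5 CPM in isotype control, 3.67 to 4.26 with anti-B7-H3, 3.54 to 4.15 with anti-PD1 and 2.37 to 2.59 in the combination. In isotype control this was under the level expected from background in every library. Beyond background the mean sums were -2.42 CPM in isotype control, 3.89 with anti-B7-H3, 0.557 with anti-PD1 and 2.16 in the combination.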

How the data were processed

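RNA was sequenced from 12 tumour libraries, 3 in each of 4 antibody groups. Samples of at least 500 ng total RNA and an integrity number from 7.0 upward lost their ribosomal RNA before Illumina TruSeq library making, per the labels. FastQC 0.11.8 and GRCm38 are named per the submitters' processing notes, and the quantifier and its strand setting are not given in the sources used here. The estimated counts, lengths and effective lengths per transcript are as the authors deposited them, per the file headers, unscaled and per library; deposited TPM values were not used. Of 58083 transcripts, 610 matched no gene of the GENCODE M21 annotation and were left out. Estimated counts were summed over 22195 genes and rounded.

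Genes were tested with edgeR 4.0.16 in R 4.3.3 (TMM scaling, filtering by expression, robust quasi-likelihood F test, all 12 libraries in 1 fit), with Benjamini-Hochberg adjustment over 13478 genes and a threshold of 0.05. The SE is the log2 fold change divided by the square root of F. The fit was tested on simulated data with known changes. Expected background was the Olfr reads per kb of a library times a gene's coding length (87.2% of the deposited lengths are multiples of 3). Satellite-like genes are predicted or clone-named genes with over 0.5% of isotype control reads. Median chi-squares between libraries of a group were 0.546 to 0.968, above the 0.455 of counting noise, and 2.12 to 9.93 between groups. These values cannot tell separate mice from technical replicates. Each library was counted as 1 sample without knowing which of these they are.

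Values in every library are given for 33 genes, those with the highest reads per kb of their role group (up to 4) and those called in opposite directions in 2 comparisons; the rest are given by range and count. The 40 genes and all lists were chosen with earlier results of these data known, and some pathway genes are not reported here. Alternatives were DESeq2 1.42.0 size factors and Wald test, no filter, only the groups compared, a replicate block, background subtracted, genes at 3 or more times background, satellite-like genes left out, an effective-length offset, and each library left out.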

Additional observations from a re-analysis of the deposited data

How the results depend on the processing

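Of 2982 values of single genes under another setting, 2674 kept their direction and side of the threshold, 92 changed sign but were called in neither setting, 135 no longer passed, 55 newly passed and 26 changed sign and were called in at least 1 of the settings. Calls that no longer passed numbered 20 with background subtracted and 28 with the effective-length offset, beside those that changed sign. The number of the 40 genes called stayed within 1.5 times in every setting run except as follows. For anti-PD1 against isotype control, 15 fell to 7 with background subtracted, and for the combination against anti-B7-H3, 19 fell to 6 with the effective-length offset. With each library left out in turn, the counts ran from 29 to 30 for anti-B7-H3 against isotype control, 11 to 15 for anti-PD1, 20 to 26 for the combination, 14 to 19 for the combination against anti-B7-H3 and 34 to 36 against anti-PD1. The ratio of summed reads to background used Olfr genes. With Vmn and Tas2r genes added it moved from 1733.5 ± 219.7 to 1059 with anti-B7-H3 and from 124.1 ± 2.64 to 115.8 in the combination.

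The 26 log2 fold changes that changed sign and were called were these. With background subtracted, anti-B7-H3 against isotype control gave 7.02 for Mx1, 0.039 for Cmpk2, 0.74 for Mx2, 1.21 for Helz2, 6.16 for Ifi44, 2.23 for Usp18, 2.37 for Oas3, 1.42 for Oas2 and 0.0024 for Oasl1. Anti-PD1 against isotype control gave 3.39 for Mx1, 0.31 for Dhx58, 0.54 for Mx2, 2.92 for Ifih1, 0.36 for Helz2, 0.87 for Oas2 and 0.64 for Parp14. The combination against isotype control gave 1.71 for Mx2, 1.03 for Helz2, 3.06 for Oas3 and 2.01 for Oas2. Where isotype control is then near 0 the size depends on the prior count and is no bound. With the effective-length offset, Isg20 (0.82) and Ifit2 (0.38) turned over for anti-B7-H3 and Ifit2 (0.34) for anti-PD1 against isotype control, Ifit2 (-0.040) for the combination against anti-B7-H3 and Herc6 (-0.27) against anti-PD1. Without a filter Helz2 (0.28) did for anti-B7-H3. The cause was not tested beyond the settings' own construction. The filter left out moved the median of all genes by -0.74, -0.44 and -0.68 in the comparisons with isotype control and by -0.27 for the combination against anti-PD1.

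The groups share replicate numbers, but same-numbered libraries did not deviate together (correlations of -0.0361 to 0.0435 over 18 pairs, and -0.0692 to 0.0563 over 36 pairs of different numbers), and 5 of 12 libraries correlated best with their own number. With the number as a replicate block, 18 of the 40 genes were called for the combination against anti-B7-H3, without Rtp4, and 25 for the combination against isotype control, without Oas2; the other 3 counts were 30, 15 and 35. Depth limits what isotype control libraries show: all other genes there share 1242347 to 1407625 reads, and 9 of the 40 genes are at or under background.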
